A study of Mus musculus with 2 samples.

Results

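The genes described here were Slc7a11, Gclc, Gclm, Gss, Gsr, Gpx1, Gpx3, Gpx4 and Gpx8, which serve cystine uptake and glutathione metabolism. They were taken by gene name from the expression values of mouse FAPs (fibro-adipogenic progenitors), stromal cells that reside in muscle and can give rise to adipocytes. All 9 names were found among the 44291 genes listed, each at a single entry. The genes were chosen by their FPKM in these same libraries and the fold change between them, so their differences are given as a description, without a test.

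The RNA-seq data held 1 library of primary wild-type (WT) FAPs treated with platelet-rich plasma (PRP), a platelet concentrate from blood, and 1 library of WT FAPs given vehicle as control. Both cultures were afterwards kept in adipogenic induction medium, which adds insulin, dexamethasone and the phosphodiesterase inhibitor IBMX to DMEM and serum, so the control cells were induced as well. By its label the treatment was PRP, but for the sequenced cells the study's own text speaks of exosomes from young human donors. Exosomes are small vesicles, here isolated from PRP. The labels' names PRP and control are kept here. With 1 library per group no difference has a replicate check, and the effect of treatment cannot be told apart from that of a single culture or library.

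Glutathione is a tripeptide of glutamate, cysteine and glycine and the main soluble thiol of animal cells. Cystine enters through the antiporter xCT, is reduced to cysteine and joined to glutamate and then to glycine. The resulting glutathione is the electron donor of glutathione peroxidases such as Gpx1 and Gpx4, which reduce hydrogen peroxide and lipid peroxides. Oxidised glutathione is returned to the reduced form by glutathione reductase with NADPH. In textbook accounts the transcription factor NRF2 drives genes of this pathway through the antioxidant response element. In the same accounts ATF4 also drives the cystine transporter when amino acids are short.

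Values are FPKM, in general read numbers scaled to exon length and to library depth. Levels of different genes can be set side by side on this scale, but they depend on the exon length taken for each gene. That length appears to count all annotated exonic bases, 13922 for Slc7a11, whichever transcripts the cells made. The intervals given below for ratios between genes do not cover this. Worked back from the values with annotated exon lengths, the PRP library held 40120843 assigned reads and the control library 34139741, a ratio of 1.18. The sum of FPKM was 343024 with PRP and 339238 in the control, and mitochondrial genes held 2.06% and 3.70% of these sums. Of 8 FAP markers, 6 had a mean FPKM of at least 1 and all 6 were lower in the PRP library. Of all 13401 genes with such a mean, 50.9% were higher. Pdgfra was at 19.8 against 28.0 FPKM, Ly6a at 59.9 against 66.4 and Col1a1 at 118.6 against 218.7. On the log2 scale described below, 1 of the 6, Col1a1, was at least 1.5-fold lower, against 4.57% of all genes. Summed over the 8 markers, FPKM was 214.8 with PRP and 333.9 in the control. Adipocyte markers summed to 51.4 and 44.0 FPKM, mostly Fabp4, with 4 of 7 at a mean of at least 1. These were Fabp4 at 40.7 and 33.6, Adipoq at 5.49 and 5.22, Cfd at 2.92 and 2.22 and Plin1, which was lower, at 1.73 and 2.10. Leukocyte markers summed to 11.3 and 11.2, with 2 of 8 at that level, Cd68 at 4.56 and 2.31 and Lyz2 at 4.91 and 7.57. Ptprc was at 0.0109 and 0.0192. Endothelial markers summed to 9.39 and 5.29 FPKM, with 2 of 6 at that level, Kdr at 4.23 and 1.5 and Tek at 4.73 and 3.56. Pecam1 was at 0.188 and 0.0470 and Cldn5 at 0 in both. Myogenic markers summed to 18.0 and 14.6 FPKM, with 2 of the 5 examined at that level. These were Acta1 at 15.1 and 11.1 and Des at 2.91 and 3.39, while Pax7 and Myog were at 0. None of 8 platelet and erythroid markers reached a mean of 1 FPKM, and their sums were 1.74 and 1.80. In bulk RNA, fewer cells of a type and less RNA per cell cannot be told apart, and the part of these shifts in the differences below was not tested.

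The transporter gene Slc7a11 and the synthesis genes Gclc, Gclm and Gss were higher in the PRP library, all 4 by at least 1.5-fold, whereas Gsr and 3 of the 4 peroxidase genes lay within 1.1-fold of the control library and Gpx3 was lower. Log2 fold changes were log2(PRP FPKM + 1) minus log2(control FPKM + 1), which shrinks the fold of low genes, and were examined for the 13401 genes whose mean FPKM was 1 or more. All 9 genes passed this filter. On that scale 7 of the 9 were higher in the PRP library, while 50.9% of all 13401 genes were higher. At least 1.5-fold higher were 4 of the 9, against 6.15% of all genes, and at least 2-fold higher were 2, Slc7a11 and Gclc, against 2%. At least 1.5-fold lower was 1, Gpx3, against 4.57% of all genes. The genes were picked from this same contrast, and nothing is read from their difference to the background. The median log2 fold change of the 9 genes was 0.11, with a range from −0.83 to 2.35, beside a median of 0.01 over all genes, of which 95% lay between −0.74 and 0.89.

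**Figure D1:**
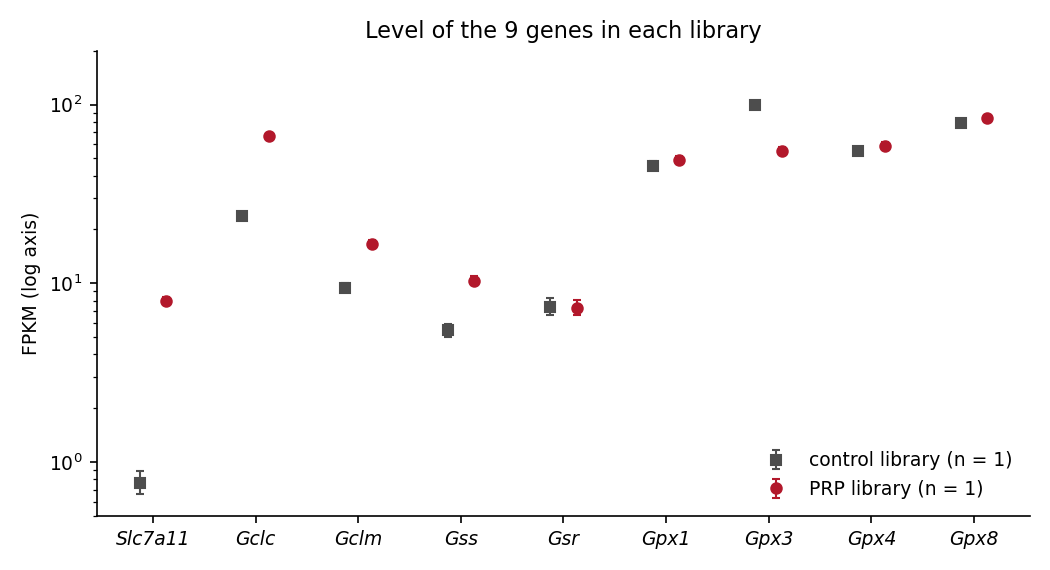
FPKM of the 9 genes in the PRP and the control library (log axis), 1 point per library and gene, with exact 95% intervals for counting error only. Slc7a11 lies at 7.98 with PRP and at 0.766 in the control, whereas the points of Gsr, Gpx1, Gpx4 and Gpx8 nearly coincide.

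Whole read numbers could be recovered for all 9 genes, which gave a counting interval for each ratio of FPKM between the libraries. The interval is an exact Clopper-Pearson 95% interval, computed from the gene's fragment numbers in the 2 libraries, with 2 reads taken as 1 fragment. It covers counting error only and takes no account of PCR duplicates or of variation between cultures. The interval lay above 1 for 5 of the 9 genes, against 26.1% of the 12369 genes with recovered reads, below 1 for 1 gene, against 26.1%, and included 1 for the other 3.

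Slc7a11 encodes the light chain of xCT, the subunit that exchanges extracellular cystine for glutamate. It lies on the reverse strand at chr3:49892526-50443614 (mm10, ENSMUSG00000027737), with 13922 exonic bases. Its level was 7.98 FPKM in the PRP library (4460 reads) and 0.766 FPKM in the control library (364 reads). The ratio was 10.4 (8.96 to 12.2), and the log2 fold change of 2.35 was the 11th highest of the 13401 genes. It passed the filter on mean FPKM through its PRP value alone, and in the PRP library 60.8% of the genes that passed had a lower FPKM. No exonic base was shared with another annotated gene. The longest stretch resembling another gene had 585 bases at 92.5% identity to Tuba1b, or 4.20% of the exon length, and Tuba1b was lower in the PRP library, at 56.6 against 70.6 FPKM.

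The heavy chain that carries xCT to the cell surface is encoded by Slc3a2. Its level was 94.1 FPKM with PRP and 43.8 FPKM in the control, a ratio of 2.15 (2.05 to 2.25). Slc3a2 was 11.8 times (11.2 to 12.4) as abundant as Slc7a11 in the PRP library and 57.3 times (49.3 to 66.9) in the control library. The mRNA of the heavy chain, a protein that also serves other amino acid transporters, was the more abundant of the pair in both.

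Because Slc7a11 stood furthest from the control library, the letters before its start site were examined. Promoter windows of RefSeq (GRCm38.p6), from 250 bases before to 50 bases after the start site, were held for 7 of the 9 genes in 10 windows, Gpx4 having 4. Gclc and Gsr had none. Searched on both strands were TGATGNAA, a C/EBP-ATF response element of the kind that ATF4 binds, TGACNNNGC, the core of the antioxidant response element, TGANTCA, the AP-1 site, and GGGCGG, the GC box. An antioxidant response element can contain an AP-1 site, so these matches may overlap. The stretches with a match to either of the first 2 motifs are shown 5′ to 3′ along the gene's own strand, the matches in capitals.
Slc7a11, chr3:50443623-50443709, reverse strand: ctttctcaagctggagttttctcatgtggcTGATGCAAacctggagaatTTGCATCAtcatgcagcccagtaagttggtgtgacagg
Gclm, chr3:122245393-122245461, forward strand: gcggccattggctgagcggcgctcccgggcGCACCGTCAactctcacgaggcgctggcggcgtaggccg

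The Slc7a11 stretch held TGATGNAA in both orientations, starting 66 and 47 bases before the start site. Over all 32851 windows this motif occurred in 3.97%, and 0.07% held at least 2 matches. The Gclm stretch held 1 match to TGACNNNGC on the opposite strand, 134 bases before the start site, and 12.4% of all windows held one. No window of the other 5 genes held either motif, and none of the 10 windows held TGANTCA, which occurred in 7.81% of all windows. GC boxes, found in 35.7% of all windows, numbered 4 for Gclm, 1 each for Gss, Gpx1 and Gpx3 and up to 2 per window for Gpx4, with none for Slc7a11 and Gpx8. A match is a description of the letters and does not show binding. Bases outside these windows were not searched, so elements lying further from a start site would be missed.

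Gclc encodes the catalytic subunit of glutamate-cysteine ligase, the rate-limiting enzyme of glutathione synthesis. It lies on the forward strand at chr9:77754535-77794485 (ENSMUSG00000032350), with 3766 exonic bases. Its level was 66.5 FPKM in the PRP library (10045 reads) and 23.8 FPKM in the control library (3066 reads). The ratio was 2.79 (2.63 to 2.95) and the log2 fold change 1.44, placing Gclc 100th of 13401 genes. The difference of 42.6 FPKM exceeded that of Slc7a11, which was 7.22 FPKM. Gclc shared no exonic base with another gene.

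Gclm encodes the modifier subunit, which lowers the inhibition of the ligase by glutathione. It lies on the forward strand at chr3:122245557-122270732 (ENSMUSG00000028124), with 6291 exonic bases. Its level was 16.6 FPKM in the PRP library (4196 reads) and 9.46 FPKM in the control library (2031 reads), a ratio of 1.76 (1.63 to 1.90) and a log2 fold change of 0.75. Both subunits were higher in the PRP library, the catalytic one by more. Gclc was 4.0 times (3.8 to 4.21) as abundant as Gclm in the PRP library and 2.52 times (2.33 to 2.73) in the control library. The value of Gclm is uncertain in part, since it shares 244 exonic bases with Gm6061, a processed pseudogene of Ppia on the same strand that was listed at 47.3 and 39.6 FPKM. It shares a further 296 bases with the antisense gene Gm17494, listed at 2.81 and 2.33 FPKM.

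Gss encodes glutathione synthetase, which adds glycine in the last step. It lies on the reverse strand at chr2:155563181-155592810 (ENSMUSG00000027610), with 5915 exonic bases. Its level was 10.3 FPKM in the PRP library (2455 reads) and 5.44 FPKM in the control library (1099 reads). The ratio was 1.90 (1.72 to 2.11) and the log2 fold change 0.82. Gclc was 6.43 times (6.04 to 6.85) as abundant as Gss in the PRP library and 4.38 times (3.97 to 4.84) in the control library. Antisense to Gss lie Acss2, with 395 shared exonic bases, Gssos2 with 385 and Gssos1 with 322. Acss2 was listed at 2.15 and 2.10 FPKM, Gssos2 at 4.62 and 2.73 and Gssos1 at 5.05 and 2.82. The libraries were built with a stranded kit, but whether the counting used strand is not given in the sources used here, so reads in the shared bases may come from either gene. The median log2 fold change of the 4 genes of uptake and synthesis was 1.13.

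Gsr encodes glutathione reductase, the enzyme that restores reduced glutathione. It lies on the forward strand at chr8:33652523-33698163 (ENSMUSG00000031584), with 2754 exonic bases. Its level was 7.29 FPKM in the PRP library (806 reads) and 7.40 FPKM in the control library (696 reads). The ratio was 0.985 (0.852 to 1.14), so no difference was detectable at this depth. Relative to Gclc, Gsr stood at 0.110 (0.0989 to 0.121) in the PRP library and 0.310 (0.276 to 0.349) in the control library, with Gsr nearly level between the libraries and Gclc higher in the PRP library.

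**Figure D2:**
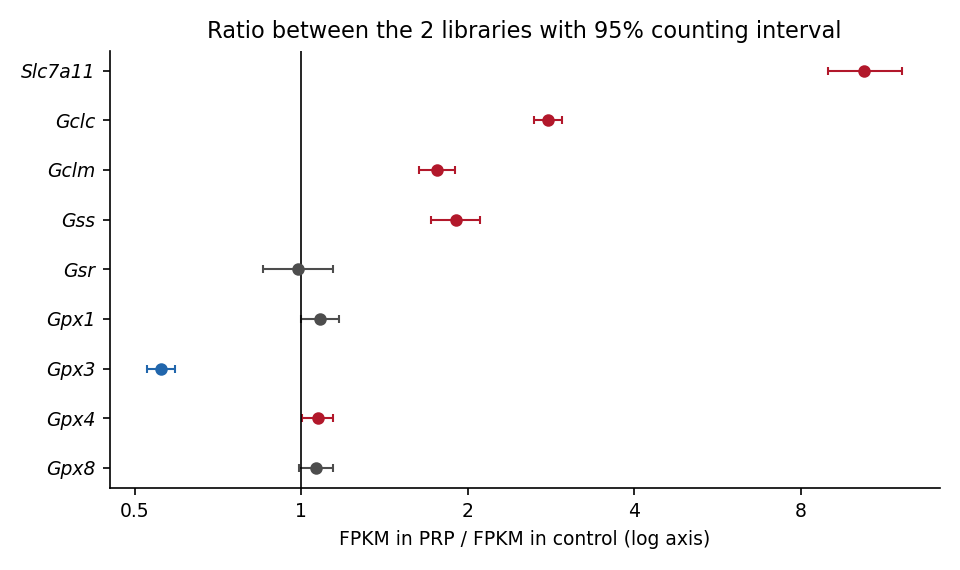
Ratio of PRP to control FPKM for the 9 genes (log axis), with exact 95% intervals for counting error only and a line at a ratio of 1. The 4 genes of uptake and synthesis lie between 1.76 and 10.4, Gsr, Gpx1, Gpx4 and Gpx8 between 0.985 and 1.08, and Gpx3 at 0.557.

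The 4 peroxidases differ in their place and in their catalytic residue. Gpx1 acts in the cytosol and mitochondria on hydrogen peroxide, Gpx3 is secreted, Gpx4 reduces lipid hydroperoxides in membranes, and Gpx8 is a membrane protein of the endoplasmic reticulum. Gpx1, Gpx3 and Gpx4 carry selenocysteine, encoded by an in-frame TGA that elsewhere ends translation, and Gpx8 and its relative Gpx7 carry cysteine instead. The codon and 15 bases on either side, from the GENCODE M21 coding sequences, are shown 5′ to 3′ with the codon in capitals (codons are counted from 1 at the start codon), since it separates the selenium-dependent members from the other.
Gpx1, codon 47, chr9:108339451-108339453, forward strand: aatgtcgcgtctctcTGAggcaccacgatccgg
Gpx3, codon 73, chr11:54907256-54907258, forward strand: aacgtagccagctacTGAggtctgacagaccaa
Gpx4, codon 129, chr10:80054737-80054739, forward strand: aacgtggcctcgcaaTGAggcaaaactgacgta
Gpx8, codon 79, chr13:113045661-113045663, reverse strand: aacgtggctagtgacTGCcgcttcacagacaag
Gpx7, codon 56, chr4:108403430-108403432, reverse strand: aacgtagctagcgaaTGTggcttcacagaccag

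The TGA codons coincide with the selenocysteine positions annotated in M21, and the codons of Gpx8 and Gpx7 are those aligned with the TGA of Gpx1. Codon numbers are those of each gene's longest coding sequence, 253 codons for Gpx4, and would differ in forms with another start codon. A relation of the differences between the libraries to this division was not tested. Of the 3 genes with TGA, Gpx3 was lower in the PRP library and Gpx1 and Gpx4 lay within 1.1-fold of the control library. Of the genes with a cysteine codon, Gpx8 also lay within 1.1-fold, and Gpx7 was lower, at a ratio of 0.721 (0.566 to 0.916).

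Gpx1 lies on the forward strand at chr9:108338903-108340343 (ENSMUSG00000063856), with 1441 exonic bases. Its level was 49.1 FPKM in the PRP library (2836 reads) and 45.5 FPKM in the control library (2237 reads). The ratio was 1.08 (0.997 to 1.17) and the log2 fold change 0.11, a difference within counting error.

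Gpx3, the secreted form, lies on the forward strand at chr11:54902453-54910377 (ENSMUSG00000018339), with 1813 exonic bases. Its level was 55.3 FPKM in the PRP library (4019 reads) and 99.1 FPKM in the control library (6136 reads). The ratio was 0.557 (0.527 to 0.590) and the log2 fold change −0.83. Only Gsr, at −0.02, and Gpx3 had a negative log2 fold change among the 9 genes. Gpx3 shared no exonic base with another gene. The FAP markers Col1a1 and Pdgfra were also lower in the PRP library, Col1a1 by a ratio of 0.542 (0.531 to 0.553) and Pdgfra by 0.710 (0.680 to 0.740). Whether the difference in Gpx3 is related to theirs was not tested.

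Gpx4, the peroxidase that protects cells from ferroptosis, lies on the forward strand at chr10:80047166-80056439 (ENSMUSG00000075706), with 1724 exonic bases. Its level was 58.8 FPKM in the PRP library (4066 reads) and 54.9 FPKM in the control library (3234 reads). The ratio was 1.07 (1.002 to 1.14) and the log2 fold change 0.10. The lower bound was just above 1, and after the libraries were rescaled to a common sum of FPKM it was 0.991. Its pseudogene Gpx4-ps2 matches 762 bases, 44.2% of the exon length, at 99.7% identity. Gpx4-ps2 was listed at 8.64 FPKM with PRP and 7.83 FPKM in the control, so reads of Gpx4 and this copy may have been divided between them.

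Gpx8 lies on the reverse strand at chr13:113042753-113046410 (ENSMUSG00000021760), with 1048 exonic bases. Its level was 83.7 FPKM in the PRP library (3519 reads) and 78.8 FPKM in the control library (2819 reads). The ratio was 1.06 (0.990 to 1.14) and the log2 fold change 0.09, a difference within counting error. The median log2 fold change of the 4 peroxidase genes was 0.09.

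Of the other peroxidases, Gpx7, a further form of the endoplasmic reticulum, was lower in the PRP library, at 5.03 against 6.98 FPKM, a ratio of 0.721 (0.566 to 0.916). Gpx2, Gpx5 and Gpx6 were listed at 0 in both libraries. The 5 detected peroxidase genes summed to 251.8 FPKM with PRP and 285.3 FPKM in the control. Gpx3 made up 21.9% of this sum with PRP and 34.7% in the control. Gpx8 made up 33.2% and 27.6%, Gpx4 23.3% and 19.3%, Gpx1 19.5% and 15.9%, and Gpx7 2.00% and 2.45%. Gpx3 was thus the most abundant peroxidase mRNA in the control library and Gpx8 in the PRP library. The ratio of Gpx3 to Gpx8 was 0.660 (0.619 to 0.704) in the PRP library and 1.26 (1.18 to 1.34) in the control library.

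The order of the 9 levels in the control library, from the highest, was Gpx3, Gpx8, Gpx4, Gpx1, Gclc, Gclm, Gsr, Gss and Slc7a11. Each neighbouring pair differed beyond counting error, and the widest step was from Gss to Slc7a11, a ratio of 7.11 (6.0 to 8.45). In the PRP library the order was Gpx8, Gclc, Gpx4, Gpx3, Gpx1, Gclm, Gss, Slc7a11 and Gsr. Gclc, below all 4 peroxidases in the control library, stood above 3 of the 4 peroxidases. Gpx4 and Gpx3, at a ratio of 1.06 (0.9998 to 1.13), and Slc7a11 and Gsr, at 1.09 (0.984 to 1.22), did not differ beyond counting error there.

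**Figure D3:**
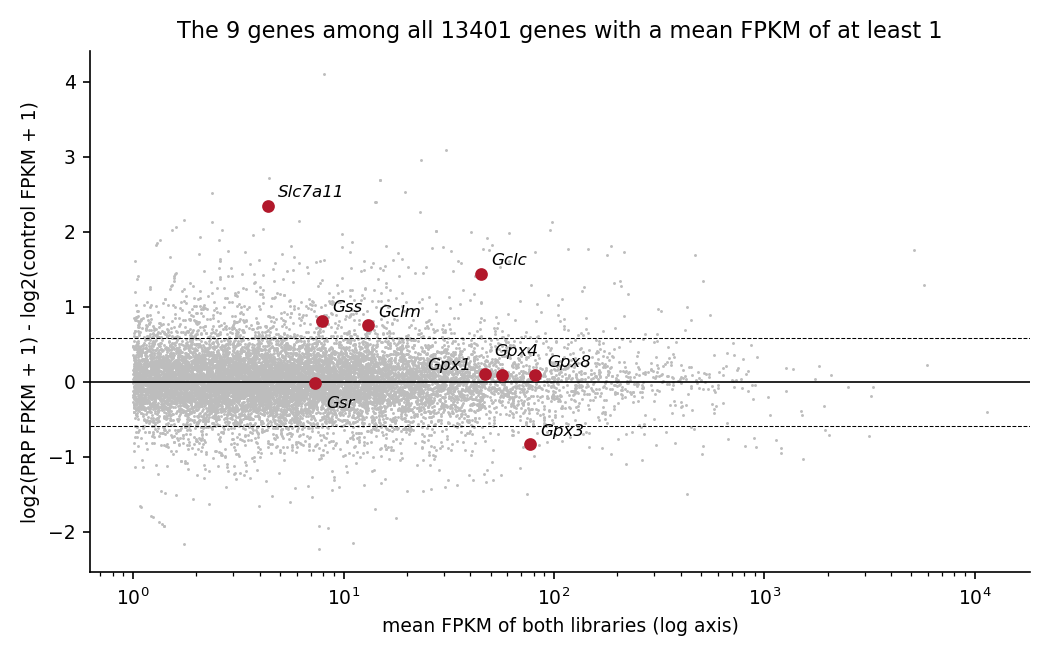
Log2 fold change against the mean FPKM of both libraries (log axis) for the 13401 genes that passed the filter, 1 grey point per gene, with the 9 genes in red and dashed lines at 1.5-fold. Slc7a11 (2.35) and Gclc (1.44) stand above most genes, Gpx3 (−0.83) below most, and Gsr, Gpx1, Gpx4 and Gpx8 lie near 0.

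The surrounding pathway was described through 13 lists written from general knowledge, with 132 genes in all. Of these, 108 had a mean FPKM of at least 1, 71 of them higher and 37 lower in the PRP library. That is 65.7% higher beside 50.9% of all genes, and it pools lists that differ. In the NRF2 and ATF4 lists, both of genes outside glutathione, 16 of 18 and 13 of 14 were higher. The medians of the other lists lay between −0.40 and 0.16, as against 0.46 and 0.33. Of the 108 genes, 18 were at least 1.5-fold higher, against 6.15% of all genes, and 3 at least 1.5-fold lower, against 4.57%. Of these 18, 8 were in the NRF2 list and 4 in the ATF4 list. The median log2 fold change of the 108 genes was 0.09 beside 0.01 over all genes. The lists were written with earlier results of these libraries known. From each, the genes with the highest and the lowest log2 fold change are named, except that only the highest is given for glutamate supply.

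Among 8 transporters of cystine, cysteine and their relatives, 4 passed the filter, 2 higher and 2 lower, with a median of 0.16. Slc3a2 was the highest, and the lowest was Slc1a5, a carrier of glutamine and other neutral amino acids, at 3.28 FPKM with PRP against 4.70 in the control. Of 10 genes of transsulfuration and the methionine cycle, which make cysteine from methionine, 7 passed, 5 higher and 2 lower, with a median of 0.03. The highest was Mtrr, methionine synthase reductase, at 5.85 against 3.84 FPKM (ratio 1.52, 1.33 to 1.74), and the lowest Mat2b at 5.30 against 5.78 FPKM. Cth, whose enzyme releases cysteine in the last step of that route, was below the filter at 1.43 against 0.430 FPKM (160 and 41 reads, ratio 3.32, 2.02 to 5.69). Cth was named after its values were seen. Cbs, the enzyme before it, was listed at 0.0466 and 0.0470 FPKM.

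All 8 genes of cysteine breakdown passed, 6 higher and 2 lower, with a median of 0.14, none of them by 1.5-fold. They ranged from Sqor, which oxidises hydrogen sulfide, at 21.4 against 15.3 FPKM, to Cdo1, cysteine dioxygenase, at 5.49 against 6.79 FPKM. Of 6 genes of glutamate supply, 3 passed with a median of 0.03, and the highest was Glul, glutamine synthetase, at 7.40 against 5.01 FPKM. None of these 3 genes reached 1.5-fold on the log2 scale with the pseudocount.

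Of 13 genes of the gamma-glutamyl cycle and glutathione breakdown, 9 passed, 4 higher and 5 lower, with a median of −0.05. Chac1, which cleaves glutathione inside the cell, was highest at 3.62 against 2.06 FPKM (ratio 1.76, 1.28 to 2.46), and Dpep1, a dipeptidase of the cell surface, lowest at 10.2 against 16.9 FPKM (0.605, 0.539 to 0.679). Among 7 genes of glutathione efflux and transport, 6 passed, 3 higher and 3 lower, with a median of −0.02. Abcc1, an exporter of glutathione and its conjugates, was highest at 12.3 against 7.04 FPKM (1.75, 1.65 to 1.85), and Abcc5 lowest at 9.97 against 13.5 FPKM.

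Of 8 genes of glutaredoxins, glyoxalases and related enzymes of glutathione, 7 passed, 4 higher and 3 lower, with a median of 0.08. Esd, which frees glutathione from S-formylglutathione, was highest at 183.8 against 101.6 FPKM (1.81, 1.75 to 1.87), and Glo1 lowest at 1.89 against 2.44 FPKM. All 11 genes of selenoprotein synthesis and selenium supply passed, 5 higher and 6 lower, with a median of −0.09. Trnau1ap was highest at 8.80 against 6.03 FPKM, and Selenop, the secreted selenium carrier, lowest at 182.2 against 289.3 FPKM (0.630, 0.614 to 0.646). Selenop and Gpx3, both secreted selenoproteins, were the genes of their lists with the lowest log2 fold change. A relation between them was not tested. Of 13 other selenoprotein genes, 11 passed, 5 higher and 6 lower, with a median of −0.01. The highest was Txnrd1, cytosolic thioredoxin reductase, at 110.6 against 44.5 FPKM (2.49, 2.41 to 2.57), and the lowest Selenom at 9.68 against 12.7 FPKM. Txnrd1, the counterpart of Gsr in the thioredoxin system, was thus 2.49-fold higher in the PRP library where Gsr had a ratio of 0.985.

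Among 12 ferroptosis genes outside the 9, 9 passed, 5 higher and 4 lower, with a median of 0.04. Tfrc, the transferrin receptor, was highest at 9.48 against 5.61 FPKM (1.69, 1.53 to 1.87), and Lpcat3, which loads polyunsaturated fatty acids into phospholipids, lowest at 1.38 against 2.89 FPKM (0.478, 0.366 to 0.623).

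The lists with the highest medians were those of the regulators. Of 18 genes of the NRF2 axis outside glutathione, all passed, 16 higher and 2 lower, with a median of 0.46. At least 1.5-fold higher were 8 of them, against 6.15% of all genes. Nfe2l2, which encodes NRF2, was at 57.0 FPKM with PRP and 32.5 FPKM in the control (1.75, 1.66 to 1.85). Srxn1, sulfiredoxin, was highest at 226.0 against 65.7 FPKM (3.44, 3.31 to 3.57), and Me1, malic enzyme, lowest at 27.4 against 34.5 FPKM. Of 14 genes of the ATF4 axis, all passed, 13 higher and 1 lower, with a median of 0.33. At least 1.5-fold higher were 4 of them, against 6.15% of all genes. Atf4 was at 104.2 against 72.4 FPKM (1.44, 1.37 to 1.51), and Atf3, a stress-induced factor, was highest at 11.98 against 5.14 FPKM (2.33, 1.97 to 2.77). The only lower gene was Aldh1l2, of mitochondrial folate metabolism, at 7.05 against 10.7 FPKM. An mRNA level says nothing of the activity of either factor, and its relation to the 4 genes of uptake and synthesis was not tested.

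**Figure D4:**
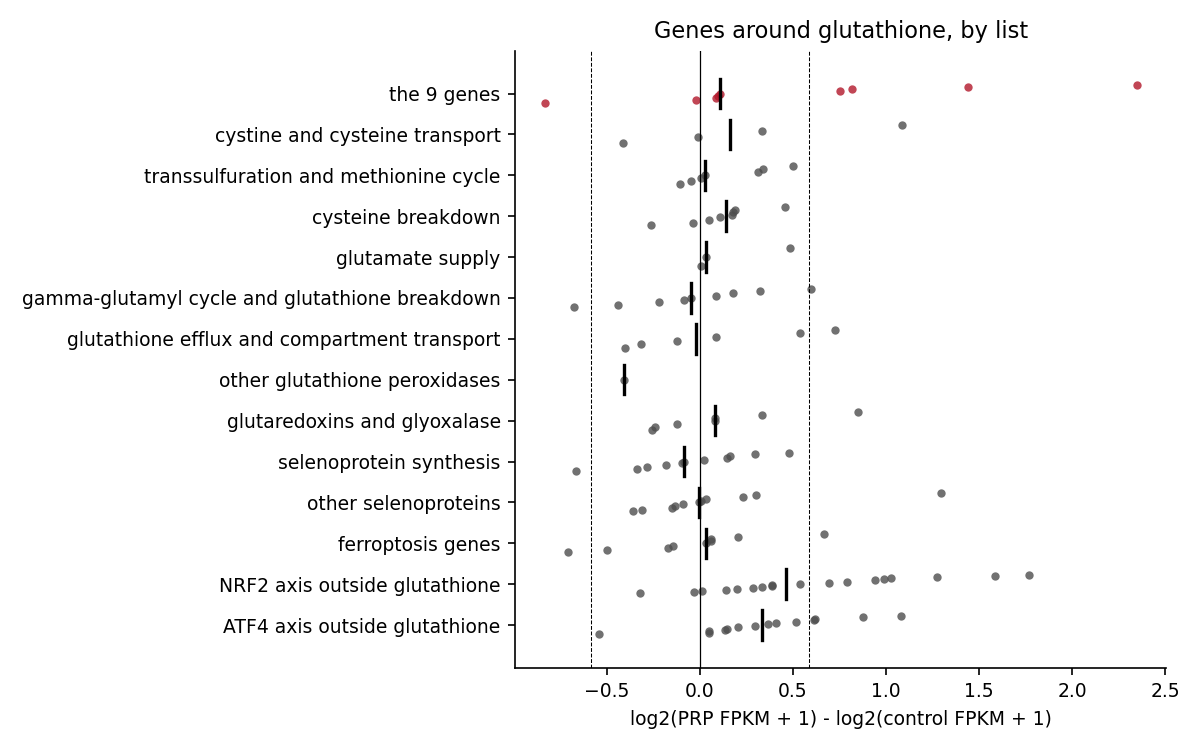
Log2 fold changes of the genes that passed the filter in each list, 1 point per gene, the 9 genes in red, with the median of each list as a bar, a line at 0 and dashed lines at 1.5-fold. The medians of the NRF2 list (0.46) and the ATF4 list (0.33) lie above those of the other lists of the pathway, which range from −0.40 for the single gene Gpx7 to 0.16.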

How the data were processed

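RNA of primary mouse FAPs was sequenced in 1 PRP and 1 control library. Per the labels, TRIzol was used for extraction and a stranded mRNA kit for the libraries. Per the submitters' processing notes, the tools were fastp 0.23.4, STAR 2.5.3a and featureCounts, with mm10 as the build. The values the authors deposited are FPKM for 44291 genes. How counts were scaled, the annotation release and the strand setting of the counting are not given in the sources used here.

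Exon lengths and coordinates came from GENCODE M21 (GRCm38, that is mm10), which held 41492 of the genes. With these lengths, 26406 of 28160 genes above 0 (93.8%) gave whole read numbers in each library (within 0.001 reads), and so did all 9 genes. Even numbers were in excess (79.3% and 80.3% of genes with up to 8 reads), so reads were divided by 2 for the intervals. The reads served only for depth and intervals, and no count test was run. Log2 fold changes used a pseudocount of 1 and a filter at a mean FPKM of 1. Resemblance to other genes was searched with BLAST 2.17.0 in matches of at least 100 bases at 90% identity. Gclc, Gsr, Gpx1, Gpx3 and Gpx8 had none. Python 3.11.15, NumPy 2.4.6, pandas 2.3.3, SciPy 1.17.1, Biopython 1.88 and matplotlib 3.10.9 were used, and the procedure was tested on simulated data.

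The 9 genes, the lists and the markers were chosen with earlier results of these data known. Named were all 9 genes, the highest and lowest gene of each list and the partners or paralogs needed to describe a member. 1 gene that this rule names is not reported here. Alternatives were pseudocounts of 0.1 and 5, other filters, scalings and fold thresholds, undivided reads, and removal of genes with overlapping exons or addition of pseudogene reads. Intervals under other scalings were added after seeing the data.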

Additional observations from a re-analysis of the deposited data

How the results depend on the processing

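No paired analysis was possible because there was only 1 PRP and 1 control library. The number of the 9 genes at least 1.5-fold higher in the PRP library, which was 4, fell to 2 with a pseudocount of 5 and was 2 at a threshold of 2-fold. The number of genes of the wider lists lower in the PRP library, which was 37, was 21 with a filter at a mean FPKM of 5, which tests fewer genes. Slc7a11 did not pass that filter. None of the 9 log2 fold changes changed sign under the scalings and pseudocounts tried. That of Slc7a11 ranged from 1.17 with a pseudocount of 5 to 3.22 with a pseudocount of 0.1, that of Gclc from 1.31 to 1.48, Gclm from 0.58 to 0.81, Gss from 0.56 to 0.91 and Gpx3 from −0.86 to −0.79. The interval excluded 1 for 6 of the 9 genes as reported, for 8 with reads not divided by 2 and for 5 under each of 3 other scalings, chosen after seeing the data, where that of Gpx4 included 1. Depth was lowest for Slc7a11 in the control library, with 364 reads, and for Gsr, with 806 and 696 reads, and culture-to-culture variation could not be assessed.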
